A study of Saccharomyces cerevisiae with 6 samples.

Results

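Protein mannosylation in budding yeast was described through 33 genes, chosen as the PMT O-mannosyltransferases, the KTR and MNN families of Golgi mannosyltransferases and the genes that supply GDP-mannose. All 33 were matched by gene symbol to a probe set on the array, each to 1 probe set, and all 33 passed the filter on low values among 5350 genes tested. The cells were Saccharomyces cerevisiae BY4741, a haploid laboratory strain of mating type a that lacks HIS3, LEU2, MET15 and URA3, and these were transformants with a gene under galactose control. In the PI3K group that gene was p110α-CAAX, which is the PIK3CA product, a catalytic subunit of mammalian phosphoinositide 3-kinase, carrying a membrane-targeting motif. In the KD group it was the same protein with the kinase-dead substitution K802R. Both groups were grown in raffinose medium and given 2% galactose for 4 h, so both were induced to make the foreign protein and both had switched to galactose. The level of the foreign protein in each group was not analysed here. Each group had 3 biological replicates and 1 array for each, and the comparison of PI3K with KD asks what the kinase activity does beyond production of the protein. The labels do not say whether replicates were separate transformants.

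Yeast cell wall proteins carry mannose in both of their kinds of glycan. Mannose is first turned into GDP-mannose in the cytosol. In the endoplasmic reticulum the PMT enzymes attach single mannoses to serine and threonine, using mannose carried on dolichol, while other enzymes build and transfer the core of N-linked glycans. In the Golgi, which imports GDP-mannose, KTR and MNN1 family enzymes lengthen the O-linked chains, and Och1, the mannan polymerases and the branching enzymes turn N-linked cores into long mannan, which covers the outer surface of the wall. Cells that lack these enzymes often have weak walls and depend on the Slt2 cell wall integrity pathway.

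The deposited values are summaries per probe set on a log2 scale, from 2.49 to 14.70, with array medians between 9.49 and 9.54. The arrays also differed within groups. After group means were removed, 4 components were left, and the first principal component of all genes held 70.4% of the remaining variance. It grouped KD 3 with PI3K 1 and PI3K 3, called side A here, and PI3K 2 with KD 1 and KD 2, called side B. With group means removed, each group had to split between the sides, so that split is not itself a result. The labels name no batch, so differences are also given within each side. The galactose genes GAL1, GAL7 and GAL10, induced from the kind of promoter that drives the transgene, differed by -0.020, 0.17 and -0.020 between PI3K and KD, with limma adjusted p-values of 0.962, 0.617 and 0.960.

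None of the 33 mannosylation genes passed a limma adjusted p of 0.05, where 13 of the 5350 genes tested (0.243%) did. At an unadjusted limma p under 0.05 there were 2, KTR2 higher and MNN1 lower in PI3K, which is 6.06% of the members, against 14.5% of all genes tested. PI3K and KD did not overlap for 5 members, or 15.2%, against 20.7% of all genes. These 5 were KTR2 and SEC53, higher in PI3K, and MNN1, MNN5 and VAN1, lower. In all, 21 members had a mean that was higher and 12 a mean that was lower in PI3K, and the median log2 difference was 0.041, against -0.00180 over all genes tested. The sign of the members' median was not stable. It was -0.016 without PI3K 3 and -0.044 with a covariate for the array side. It was 0.0089 without PI3K 1, 0.17 without PI3K 2 and 0.10 without KD 3. With array weights, a fit that rests mostly on PI3K 1 and KD 2, it was 0.18. With quantile normalisation MNT4 and MNN11 changed sign. RNA came from whole cultures, so a difference in every cell and a difference in the share of cells that respond cannot be told apart.

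For 31 of the 33 members the log2 difference was smaller than 0.25 in size, which is 93.9%, against 69.1% of all genes tested, and the exceptions were KTR2 and MNN1. The 95% interval of the difference lay inside a 2-fold change either way for 32 members, KTR2 being the other, which is 97.0% of them, against 90.8% of all genes tested. It lay inside a 1.5-fold change for 21 members, or 63.6%, against 53.6% of all genes.

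**Figure D1:**
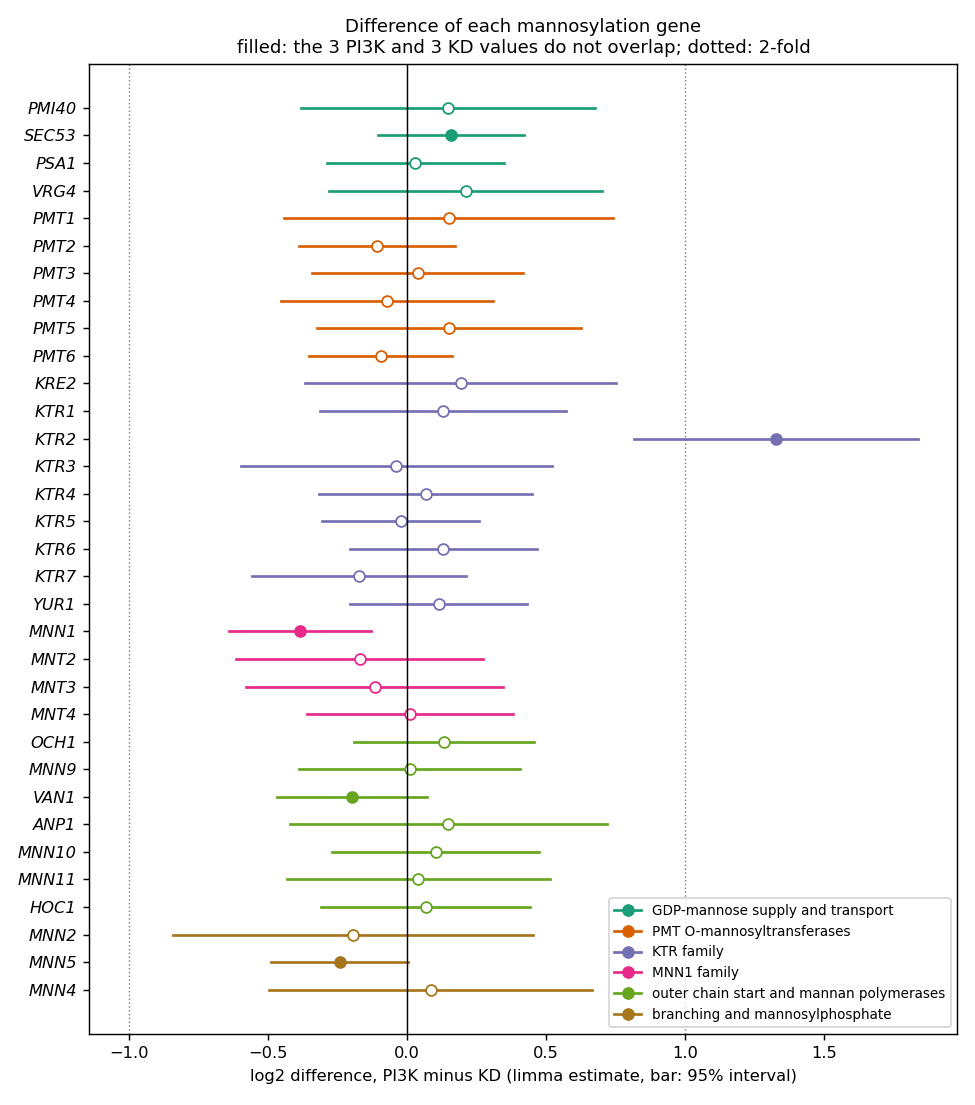
Log2 difference between PI3K and KD for each of the 33 mannosylation genes, grouped by role, with the 95% interval of the limma fit; filled points are genes whose 3 PI3K and 3 KD values do not overlap. KTR2 stands at 1.33, and the other 32 genes lie between -0.38 and 0.21, with intervals inside the dotted lines of a 2-fold change.

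The supply of GDP-mannose starts with PMI40, the mannose-6-phosphate isomerase, continues with SEC53, the phosphomannomutase, and ends with PSA1, the GDP-mannose pyrophosphorylase, after which VRG4 carries GDP-mannose into the Golgi. All 4 had positive differences, from 0.029 to 0.21, and none passed the test. PSA1 and PMI40 were below 0 with the side as a covariate, and PSA1 also without PI3K 1 and without KD 1. SEC53 (YFL045C) had log2 values of 13.35, 13.29 and 13.28 on PI3K 1 to 3, against 13.02, 13.18 and 13.25 on KD 1 to 3. The groups did not overlap, but the lowest PI3K value and the highest KD value were 0.030 apart, and the difference was 0.16 (SE 0.11, limma adjusted p = 0.599). VRG4 (YGL225W) had 12.21, 11.64 and 12.23 in PI3K, against 11.64, 11.71 and 12.11 in KD, and a difference of 0.21 (SE 0.21, limma adjusted p = 0.733). Its PI3K 2 value lay among those of KD, and its KD 3 value near those of PI3K 1 and PI3K 3. PMI40 (YER003C) had 12.25, 11.60 and 12.33 in PI3K, against 11.78, 11.79 and 12.18 in KD, with the same arrays high and low as for VRG4. PSA1 (YDL055C) had the smallest difference of the 4, at 0.029 (SE 0.13), with 13.65, 13.29 and 13.50 in PI3K, against 13.37, 13.39 and 13.59 in KD.

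The 6 PMT genes encode the enzymes that begin O-mannosylation. Their differences were small in both directions, 3 positive and 3 negative, between -0.11 and 0.15, with a median of -0.016, and all 6 had overlapping groups. PMT1 and PMT2 encode the partners of the main heterodimer. PMT1 (YDL095W) had log2 values of 11.55, 10.81 and 11.52 in PI3K, against 10.84, 11.12 and 11.48 in KD, a difference of 0.15 (SE 0.25). PMT2 (YAL023C) was steadier, with 12.13, 11.94 and 12.06 in PI3K, against 12.07, 12.29 and 12.09 in KD, a difference of -0.11 (SE 0.12). The limma adjusted p-values of this pair were 0.859 and 0.765.

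PMT4 (YJR143C), whose product works as a homodimer and modifies membrane-anchored proteins such as cell wall stress sensors, had 10.53, 10.20 and 10.47 in PI3K, against 10.60, 10.61 and 10.20 in KD. PI3K 2 and KD 3 shared its lowest level, and the difference was -0.070 (SE 0.16, limma adjusted p = 0.904). PMT3, a close relative of PMT2, and PMT6 differed by 0.039 and -0.095. PMT5 (YDL093W), a relative of PMT1, lies next to PMT1 in the order of protein-coding genes on chromosome IV. The pair had nearly equal differences, 0.15 for each, and both were lowest of their group on PI3K 2 and highest on KD 3.

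In the KTR family, KTR2 stood apart from its 8 relatives. KTR2 (YKR061W), a Golgi mannosyltransferase of the N-linked pathway, had log2 values of 9.51, 9.37 and 10.17 in PI3K, against 8.38, 8.24 and 8.44 in KD. Every PI3K array was above every KD array, and PI3K 3 was the highest. KTR2 averaged 9.68 ± 0.43 in PI3K and 8.36 ± 0.10 in KD (SD, n = 3 each), a 2.51-fold difference with a 95% interval of 1.76-fold to 3.57-fold. The log2 difference was 1.33 (SE 0.22), with an unadjusted p of 0.00048 and a limma adjusted p of 0.112, so KTR2 did not pass over all genes. It ranked 18 of 5350 among the genes higher in PI3K. Without PI3K 3 the log2 difference was 1.08 (limma adjusted p = 0.138). Side A gave 1.40 and side B 1.05. Over all 15 other settings it lay between 1.08 and 1.48, with limma adjusted p-values from 0.000708 to 0.431. The filters, the variance model, the replicate block and probe set means could not change the difference itself. KTR2 passed the limma test with array weights, a fit in which 52.5% of all genes passed and which rests mostly on PI3K 1 and KD 2. KTR2 also passed with the replicate block (limma adjusted p = 0.0286), where 0.748% of all genes passed, but replicate numbers were not taken to pair the arrays. With a covariate for the array side it passed too (limma adjusted p = 0.0300), where 3.46% of all genes did. The sides were derived from the tested values, so that last p-value is too small.

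YUR1 (YJL139C) encodes the duplicate of Ktr2 that the yeast genome duplication left. It had 8.37, 7.99 and 8.35 in PI3K, against 8.13, 8.08 and 8.16 in KD, and the groups overlapped. Its difference was 0.11 (SE 0.14, 95% interval -0.21 to 0.43, limma adjusted p = 0.783). The gap between KTR2 and YUR1, set to a mean of 0 over KD, was 0.91, 1.14 and 1.59 on PI3K 1 to 3, against 0.023, -0.073 and 0.050 on KD 1 to 3. The gap was thus wider on every PI3K array, by 1.21 on average, which is given as a description since KTR2 was singled out for its difference. Against the mean of its 8 relatives the corresponding values for KTR2 were 1.01, 1.23 and 1.58 in PI3K and 0.098, -0.025 and -0.073 in KD.

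**Figure D2:**
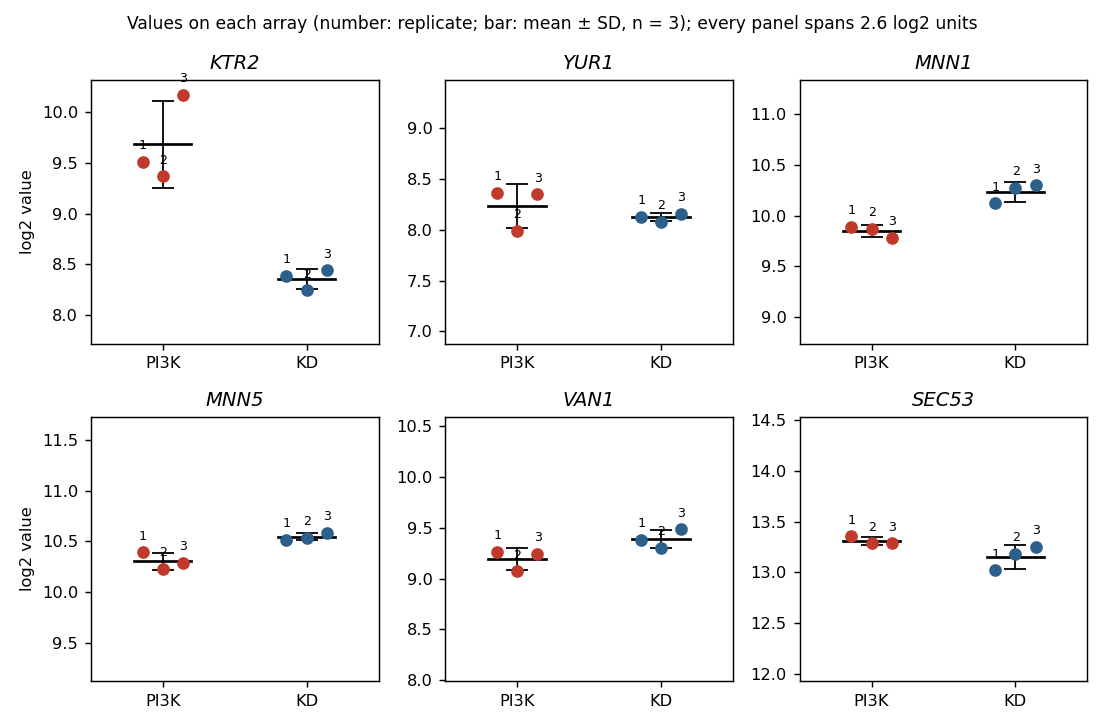
Log2 values on each array for the 5 mannosylation genes whose groups do not overlap (KTR2, MNN1, MNN5, VAN1 and SEC53) and for YUR1, the duplicate of KTR2; black bars are the mean ± SD of 3 arrays and the small numbers are replicates. KTR2 averages 9.68 in PI3K and 8.36 in KD, while YUR1 averages 8.24 and 8.12.

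The other KTR genes had differences between -0.17 and 0.19, and all 8 had overlapping groups. KRE2, KTR1 and KTR3 encode the enzymes that lengthen O-linked chains. KRE2 (YDR483W) had the largest difference after KTR2, 0.19 (SE 0.24), with 12.47, 11.86 and 12.59 in PI3K, against 11.88, 12.01 and 12.46 in KD. KTR1 (YOR099W) had 12.47, 11.99 and 12.45 in PI3K, against 12.08, 11.99 and 12.45 in KD, a difference of 0.13 (SE 0.19). KTR3 (YBR205W) had 11.09, 10.43 and 11.04 in PI3K, against 10.69, 10.72 and 11.27 in KD, a difference of -0.038 (SE 0.24). In all 3 genes PI3K 2 was the lowest array of its group and KD 3 the highest. KTR6, which encodes the mannosylphosphate transferase also called Mnn6, differed by 0.13 (SE 0.14). KTR7 had the lowest difference of the family, -0.17 (SE 0.16), and KTR4 and KTR5, whose enzymes are little studied, stood at 0.068 and -0.023.

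The MNN1 family caps glycans with terminal mannoses. MNN1 (YER001W), whose enzyme acts on both O-linked and N-linked chains and whose transcript peaks in the G1 phase, had log2 values of 9.89, 9.87 and 9.78 in PI3K, against 10.12, 10.27 and 10.30 in KD. The groups did not overlap and the arrays within each were close. MNN1 averaged 9.85 ± 0.058 in PI3K and 10.23 ± 0.097 in KD (SD, n = 3 each), so that KD was 1.31-fold higher. The log2 difference was -0.38 (SE 0.11, 95% interval -0.64 to -0.13), with an unadjusted p of 0.00938 and a limma adjusted p of 0.209. Side A gave -0.47 and side B -0.33. The difference was between -0.44 and -0.35 over all 15 other settings, with limma adjusted p-values from 0.00251 to 0.565. Some of these settings, such as the filters and the replicate block, could not change the difference. MNN1 passed the threshold only with array weights, a fit in which 52.5% of all genes passed.

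MNT2 and MNT3, whose enzymes add the outer mannoses of O-linked chains, and MNT4 had differences of -0.17, -0.12 and 0.010. MNT2 (YGL257C) had 8.82, 8.67 and 8.92 in PI3K, against 9.21, 9.13 and 8.58 in KD. MNT3 (YIL014W) had 9.52, 9.66 and 9.45 in PI3K, against 9.78, 9.96 and 9.24 in KD. For both genes KD 3 was the lowest of all 6 arrays, and the other KD arrays lay above all PI3K arrays. Without KD 3 the differences were -0.37 for MNT2 (limma adjusted p = 0.142) and -0.32 for MNT3 (limma adjusted p = 0.174).

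OCH1, the enzyme that starts the outer chain, and the subunits of the mannan polymerases had differences between -0.20 and 0.15. MNN9 and VAN1 encode mannan polymerase I, and Mnn9 also joins Anp1, Mnn10, Mnn11 and Hoc1 in mannan polymerase II. VAN1 (YML115C) had 9.26, 9.07 and 9.25 in PI3K, against 9.38, 9.30 and 9.49 in KD. Its groups did not overlap, by 0.041, and its difference was -0.20 (SE 0.11, limma adjusted p = 0.505), and side A gave -0.23 and side B -0.27. Its partner MNN9 (YPL050C) had 9.90, 9.67 and 10.21 in PI3K, against 9.83, 9.82 and 10.10 in KD, with a difference of 0.0094 (SE 0.17).

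The 4 subunits that occur only in mannan polymerase II all had positive differences in the reported fit, with overlapping groups, but of these 4 only MNN10 kept its sign over the 15 other settings, and it was near 0 without PI3K 1. With the side as a covariate ANP1 was at -0.053, MNN11 at -0.10 and HOC1 at -0.044. Without PI3K 3 MNN11 was at -0.041 and HOC1 at -0.016, and MNN11 was also below 0 without PI3K 1, without KD 1 and with quantile normalisation. ANP1 (YEL036C) stood at 0.15 (SE 0.24), MNN10 at 0.10 (SE 0.16), HOC1 at 0.067 (SE 0.16) and MNN11 at 0.041 (SE 0.20). OCH1 (YGL038C) had 10.56, 10.26 and 10.51 in PI3K, against 10.23, 10.21 and 10.48 in KD, a difference of 0.13 (SE 0.14, limma adjusted p = 0.741).

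MNN2 and MNN5 encode the enzymes that start and extend the side branches of mannan. MNN5 (YJL186W) had 10.39, 10.23 and 10.29 in PI3K, against 10.52, 10.54 and 10.58 in KD, without overlap. It averaged 10.31 ± 0.082 in PI3K and 10.55 ± 0.033 in KD (SD, n = 3 each), a difference of -0.24 (SE 0.10, limma unadjusted p = 0.0529, adjusted p = 0.353). Side A gave -0.24 and side B -0.30. MNN2 (YBR015C) had 11.55, 10.97 and 10.45 in PI3K, against 11.05, 11.42 and 11.09 in KD. PI3K 1 was its highest array and PI3K 3 its lowest, the widest spread within groups of any member (residual SD 0.41), so its difference of -0.19 had an SE of 0.27. MNN4 (YKL201C), needed for the addition of mannosylphosphate, had 11.25, 11.57 and 11.41 in PI3K, against 11.59, 11.63 and 10.76 in KD. KD 3 alone lay far below, and the difference of 0.086 (SE 0.25) became -0.20 without it.

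Within the groups, the mannosylation genes varied together. In 20 of 33 members PI3K 2 was the lowest of the PI3K arrays and KD 3 the highest of the KD arrays, which is 60.6%, against 24.0% of all genes tested. The reverse, with PI3K 2 highest and KD 3 lowest, held for 2 members, MNT3 and MNN4, or 6.06%, against 33.8% of all genes. All 7 genes of OCH1 and the mannan polymerases showed the first pattern, as did 7 of 9 KTR genes and 3 of 4 genes of GDP-mannose supply, but 2 of 6 PMT genes and none of the 4 MNN1 family genes did. These 2 arrays were singled out because the sides place them apart from their groups, and the sides come from the same values, so these counts are descriptions.

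For 27 members, or 81.8%, the deviation of PI3K 2 from the mean of PI3K 1 and PI3K 3 was larger in size than the difference between PI3K and KD, against 60.4% of all genes tested. A single array less the mean of 2 varies more than a difference between means of 3. The members' share is therefore to be read only beside that of all genes. The median of the PI3K 2 deviation was -0.31 log2 units over the 33 members, against 0.027 over all genes. KD 3 deviated from the mean of KD 1 and KD 2 by a median of 0.14, against -0.082 over all genes. Single genes reached -0.72 for PMT1 and -0.69 for PMI40 on PI3K 2, and 0.69 for ANP1 and 0.57 for KTR3 on KD 3. In the other direction MNN4 was at -0.85 and MNT3 at -0.63 on KD 3.

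**Figure D3:**
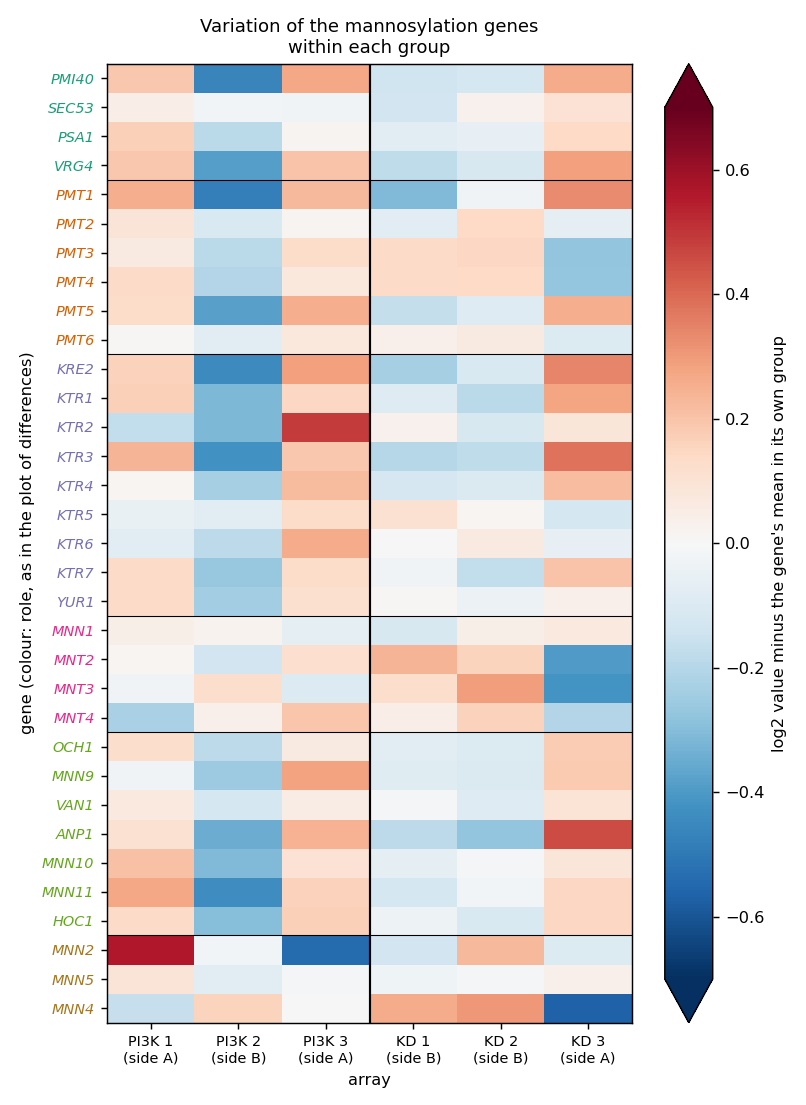
Log2 value of each mannosylation gene on each array minus the mean of its own group, with genes in rows by role and arrays in columns, PI3K on the left and KD on the right. OCH1 and the 6 mannan polymerase genes are all lowest on PI3K 2 and highest on KD 3 within their groups, while MNT3 and MNN4 run the other way.

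Within the sides, each difference rests on 1 unreplicated array of a group. The median log2 difference of the 33 members was 0.071 in side A and -0.16 in side B, against 0.050 and -0.015 over all genes tested. The sign was the same in both sides for 12 members, or 36.4%, against 61.6% of all genes. Of these 12, KTR2, OCH1 and SEC53 were higher in PI3K in both sides. The 9 that were lower in both were MNN1, MNN5, VAN1, MNN2, MNN9, KTR3, KTR4, KTR7 and PSA1. All 6 PMT genes were higher in PI3K within side A and lower within side B. In all, 20 members had that pattern and 1, ANP1, had the opposite one. The widest gaps were those of MNT2, at 0.29 in side A and -0.50 in side B, PMT4, at 0.30 and -0.41, and PMT3, at 0.41 and -0.29.

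**Figure D4:**
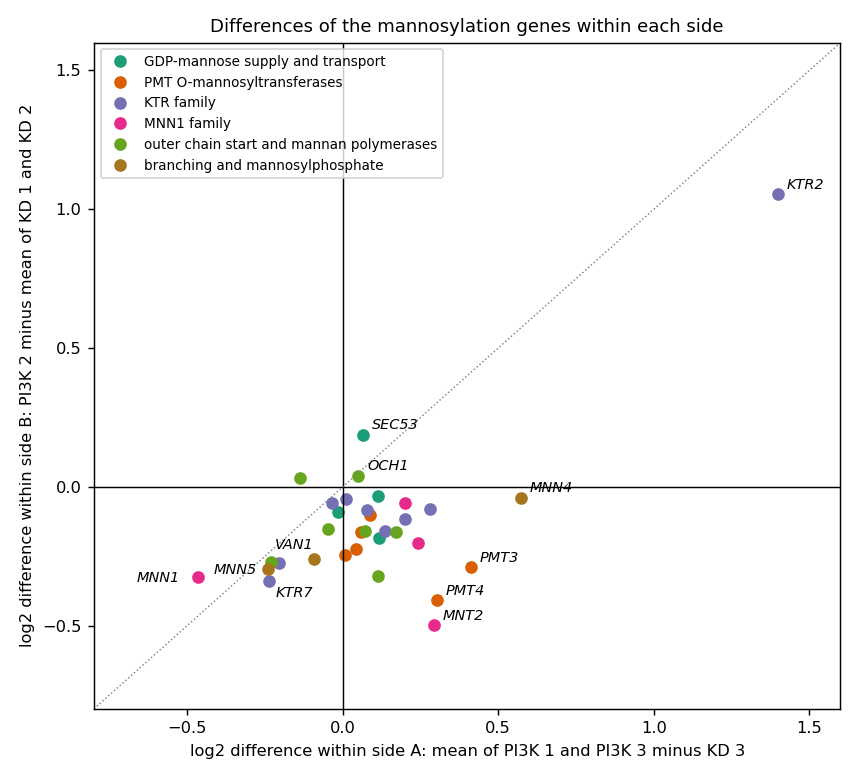
Log2 difference between PI3K and KD of each mannosylation gene within side A (horizontal axis, PI3K 1 and PI3K 3 against KD 3) and within side B (vertical axis, PI3K 2 against KD 1 and KD 2); the dotted line marks equal values. KTR2 is far to the upper right at 1.40 and 1.05, MNN1 is at -0.47 and -0.33, and most other genes lie below 0 on the vertical axis.

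In a fit with the side as a covariate, 6 members had an unadjusted limma p under 0.05, or 18.2%, against 25.6% of all genes tested. These shares were not compared by a test. KTR2 was higher in PI3K at 1.23 (adjusted p = 0.0300), and 5 were lower, MNN1 (-0.40), KTR7 (-0.29), MNN5 (-0.27), VAN1 (-0.25) and KTR3 (-0.24), with adjusted p-values from 0.0734 to 0.152. Since the sides were derived from the tested values, these p-values are too small, by an amount that was not measured.

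Other genes of glycosylation gave a similar picture of mostly small differences. Of the 45 genes tested, none passed a limma adjusted p of 0.05, with 22 higher and 23 lower in PI3K and a median of -0.00380. At an unadjusted limma p under 0.05 there were 3, or 6.67%, against 14.5% of all genes tested. The groups did not overlap for 8, or 17.8%, which is near the 20.7% of all genes. RER2, a prenyltransferase of dolichol synthesis, was at 0.47 (SE 0.20), with 10.23, 9.79 and 9.93 in PI3K, against 9.16, 9.60 and 9.78 in KD. ALG11, a mannosyltransferase of the lipid-linked oligosaccharide, was at -0.32 (SE 0.13), and MNL1, an endoplasmic reticulum mannosidase that marks misfolded glycoproteins, at -0.30 (SE 0.11). These 3 genes were among the 8, and their limma adjusted p-values were 0.343, 0.310 and 0.263.

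By role, the 7 dolichol genes had a median of 0.044, with CAX4, the dolichyl pyrophosphate phosphatase, at 0.67 (SE 0.33, limma adjusted p = 0.425). The groups of CAX4 overlapped, with PI3K 2 at 7.98 and KD 3 at 8.46, and with the side as a covariate its difference was 0.38. The 13 genes of lipid-linked oligosaccharide synthesis had a median of 0.019, with ALG1, the first mannosyltransferase of that pathway, at 0.31. The 9 oligosaccharyltransferase subunits lay between -0.17 for OST4 and 0.18, with SWP1 at 0.14. Among the 7 genes of glycan trimming 6 were lower, with MNS1, a mannosidase, at -0.26. These 7 genes had a median of 0.18 in side A and of -0.31 in side B, and 2 of them had the same sign in both sides. In the Golgi lumen, GDA1, the GDPase that acts on the GDP left by mannosyl transfer, was at -0.37 (SE 0.17, limma adjusted p = 0.384), with 10.91, 10.70 and 11.03 in PI3K, against 11.10, 11.09 and 11.55 in KD. Its groups did not overlap. With the side as a covariate GDA1 was at -0.49 (limma adjusted p = 0.0478), in a fit where 3.46% of all genes passed. The sides were derived from the tested values, so this p-value is too small. GDT1, a Golgi ion transporter, was at 0.15, and the GPI anchor mannosyltransferase genes GPI18 and GPI14 were at 0.24 and -0.24.

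Genes that report on the cell wall integrity pathway were set beside KTR2. PRM5 had 10.95, 10.82 and 11.37 in PI3K, against 8.25, 8.37 and 8.45 in KD, a difference of 2.69 (SE 0.17, limma adjusted p = 0.00447). The MAP kinase gene SLT2 and GSC2, a glucan synthase subunit, differed by 1.56 and 1.18 and passed as well (limma adjusted p = 0.0392 for each). PI3K 3 was the highest array for PRM5 and SLT2, as it was for KTR2, but GSC2 was highest on PI3K 1, at 11.70, against 11.63 on PI3K 3. Of the genes that flank KTR2 in the order of protein-coding genes, TFA2, a subunit of the general transcription factor TFIIE, was at 0.53 (SE 0.16, limma adjusted p = 0.214) and UTP30 at -0.027 (SE 0.11). The flanking genes of MNN1, IRC22 and NOP16, were at 0.053 and -0.15. MNN5 is flanked by SWE1 and ATG36, at -0.28 and 0.31, and none of these 6 neighbours passed.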

How the data were processed

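Biotin-labelled total RNA was measured on 1-colour Affymetrix arrays, per the labels' protocols. GCRMA, without a version, is named in the submitters' processing notes, and the deposited table holds 1 log2 summary per probe set and array. The log base was taken from the values, since it is not given in the sources used here. Of 5716 probe sets 5498 had 1 gene, named through the platform annotation and updated by gene identifier to RefSeq symbols (R64). Probe sets reaching a log2 value of 4 on 3 or more arrays were kept, and the one with the highest mean stood for its gene, which left 5350 genes. The PI3K and KD arrays were compared in limma 3.58.1 (R 4.3.3, lmFit and eBayes, two-sided, no block), with Benjamini-Hochberg adjustment over all genes and a threshold of 0.05. The number of arrays limits the precision. The fit was tested on simulated data. Any of the 33 members could be named, and from each related list up to 2 genes by smallest p. Members and lists were chosen with earlier results of these data known. Alternatives were other filters, scalings and variance models, array weights, a replicate block, probe set means and leaving out each array. The array side was added after seeing the data, and the genes that flank KTR2, MNN1 and MNN5 were chosen after values were seen. Promoter motifs, protein identity and the transgene were not analysed here. Plots were made in matplotlib 3.10.9 (Python 3.11.15).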

Additional observations from a re-analysis of the deposited data

How the results depend on the processing

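The count of mannosylation genes with a limma adjusted p under 0.05 was 0 with no filter, a stricter filter, median-centring, quantile normalisation, trend and robust variances, probe set means and without each array in turn. It was 22 of 33 with array weights, 1 with the replicate block and 1 with a covariate for the array side, which was added after seeing the data. In the same order the count over all genes was 2808 (52.5%), 40 (0.748%) and 185 (3.46%), against 13 (0.243%) in the reported fit. The count among the 45 related genes was 20 with array weights and 1 with the side. The iteration that estimates the array weights stopped before it converged. The weights were 5.02 for PI3K 1 and 5.75 for KD 2, and from 0.15 to 0.97 for the other arrays. The weighted fit thus rests mostly on PI3K 1, of side A, and KD 2, of side B. Leaving out 1 array gave 0 to 6 genes in all: 0 without KD 2 (476 at an unadjusted p under 0.05), 1 without PI3K 2 and without KD 1, 2 without PI3K 1 and without PI3K 3, and 6 without KD 3. Members at an unadjusted p under 0.05 numbered 24 with array weights (72.7%, against 58.7% of all genes), 6 with the side (18.2%, against 25.6%), and 2 to 4 without 1 array, the 4 without KD 3 (12.1%, against 24.2%). The median of the members was -0.16 within side B, -0.044 with the side as a covariate and -0.016 to 0.17 without 1 array, below 0 without PI3K 3. Replicate numbers were not taken to pair the arrays: residuals of same-numbered arrays correlated at -0.49, 0.48 and 0.39. Across the groups, PI3K 1 and KD 3 correlated best with each other (0.58), as did PI3K 2 and KD 1 (0.63). Only PI3K 3 and KD 2 correlated best with their own number.

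Over the 15 other settings 13 members kept their sign, among them KTR2, MNN1, MNN5, VAN1 and SEC53. The other 20 did not, all of them with a reported difference under 0.20 in size. The cause was not tested. Some settings could not change a member's difference, namely both filters, the variance model, the replicate block and probe set means. Each member has 1 probe set and the groups are balanced, so a kept sign in those settings was fixed in advance. Quantile normalisation gave -0.020 for MNT4 and -0.00193 for MNN11. Array weights gave -0.037 for PMT3, 0.33 for KTR3, 0.089 for KTR7, -0.29 for MNT4, 0.027 for MNN2 and -0.32 for MNN4. The side as a covariate gave -0.054 for PMT1, -0.00723 for PMT5, -0.00297 for KRE2, -0.017 for KTR1, -0.045 for KTR4, 0.018 for MNT3, -0.10 for MNN9, -0.053 for ANP1, -0.10 for MNN11, -0.044 for HOC1, -0.034 for PMI40 and -0.052 for PSA1. Leaving out 1 array gave ranges of -0.00408 to 0.39 for PMT1, -0.100 to 0.13 for PMT3, -0.21 to 0.031 for PMT4, -0.16 to 0.17 for KTR3, -0.043 to 0.19 for KTR4, -0.086 to 0.030 for KTR5 and -0.32 to 0.031 for MNT3. The ranges were -0.092 to 0.12 for MNT4, -0.13 to 0.14 for MNN9, -0.093 to 0.26 for MNN11, -0.016 to 0.22 for HOC1, -0.47 to 0.076 for MNN2, -0.20 to 0.24 for MNN4 and -0.054 to 0.12 for PSA1. Scanner signal was not analysed here, so signal over background could not be judged.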
